A study of Mus musculus with 46 samples.

Results

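A set of 847 cCRE-promoter pairs was measured in both of the study's assays, once with the candidate cis-regulatory element (cCRE) placed immediately upstream of the promoter (the Upstream assay) and once with the same cCRE placed downstream of a reporter driven by that promoter (the Downstream assay). Members were the constructs with the same cCRE, the same promoter and the same strand label of each in both tables. They make up 22.5% of the 3758 cCRE-promoter pairs of the Klf2 locus in the Upstream assay and 62.1% of the 1364 in the Downstream assay, out of 89293 Upstream and 2364 Downstream constructs in all. The pairs join 76 cCREs to 10 promoters of the locus, in 551 combinations. All promoters carry the strand label +, and the cCRE carries + in 442 pairs and - in 405.

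The cells were E14TG2a, a mouse embryonic stem cell line, kept undifferentiated in 2i+LIF medium, which pairs inhibitors of differentiation signals with the cytokine LIF. Plasmid pools were brought in by nucleofection and RNA was harvested after 24 h, with no other treatment in either group. The Upstream group is 3 biological replicates of a mix that held the Klf2, Nanog and negative-control libraries, and the Downstream group is 3 biological replicates of a mix of all Downstream sub-libraries. These 6 complementary DNA samples of the 46 in the series carry every value below. The files hold reporter activities only, so the cell line was not checked against marker genes, and the depth behind each activity is unknown. The replicates of a group received the same plasmid pool, so their spread leaves out differences between plasmids, and assay, plasmid backbone and library mix cannot be told apart.

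In a massively parallel reporter assay each construct carries barcodes, and activity is the ratio of a construct's barcodes in RNA to those in the plasmid input. Enhancers are classically described as elements that raise transcription from a promoter whatever their orientation and whether they lie before or after the gene, whereas a fragment next to the promoter can also act as a part of the promoter itself. Measuring the same pair in both positions asks how far the effect of an element depends on where it stands. Activity depends strongly on the promoter, so the effect of a cCRE is given here as log2 activity minus the median log2 activity of all shared pairs of that promoter in that replicate. An effect of 1 is a doubling over the median pair, and an effect of 0 is the median pair, not the absence of a cCRE.

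All fragments come from chromosome 8 and have a start and an end 450 bp apart. Sequence is shown for the cCREs at both ends of the order and for the promoters with the widest and the narrowest effects Upstream, which are not the ends of the range Downstream. Only fragments that contain a RefSeq promoter window (build GRCm38.p6) could be shown; the 250 bases before each gene's start are printed 5′ to 3′ on the gene's strand. Capitals mark matches, on either strand, to motifs known from promoters. The letters searched for were CCAAT for the CCAAT box bound by the factor NF-Y, GGGCGG for the GC box bound by the factor Sp1, and TATAAA for the box bound by the TATA-binding protein. Searched in the same way were CCGGAAG for the family of ETS factors, CACGTG for the E box of basic helix-loop-helix factors, AAGATGGC for the factor YY1 and GCGCATGC for the factor NRF1. The GC box and ETS matches of the first sequence overlap.
E007, Zfp617, chr8:71922575-71922824, plus strand: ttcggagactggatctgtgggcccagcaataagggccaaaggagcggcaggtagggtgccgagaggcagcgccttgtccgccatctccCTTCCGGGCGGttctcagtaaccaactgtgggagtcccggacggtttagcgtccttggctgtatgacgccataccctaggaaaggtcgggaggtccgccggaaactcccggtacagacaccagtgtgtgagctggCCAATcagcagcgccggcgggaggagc
E030, Gm39196, chr8:72125925-72126174, minus strand: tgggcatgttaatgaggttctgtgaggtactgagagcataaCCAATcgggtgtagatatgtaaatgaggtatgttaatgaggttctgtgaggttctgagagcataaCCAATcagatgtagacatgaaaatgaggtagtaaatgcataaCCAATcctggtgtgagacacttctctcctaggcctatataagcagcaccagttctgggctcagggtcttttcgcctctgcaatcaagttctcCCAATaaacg
P016, Klf2, chr8:72318812-72319061, plus strand: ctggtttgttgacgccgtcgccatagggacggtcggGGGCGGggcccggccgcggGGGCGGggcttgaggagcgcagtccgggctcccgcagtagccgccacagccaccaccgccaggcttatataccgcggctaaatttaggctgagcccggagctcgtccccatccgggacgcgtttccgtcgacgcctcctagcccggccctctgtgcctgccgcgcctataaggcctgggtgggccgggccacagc
P017, Eps15l1, chr8:72421475-72421724, minus strand: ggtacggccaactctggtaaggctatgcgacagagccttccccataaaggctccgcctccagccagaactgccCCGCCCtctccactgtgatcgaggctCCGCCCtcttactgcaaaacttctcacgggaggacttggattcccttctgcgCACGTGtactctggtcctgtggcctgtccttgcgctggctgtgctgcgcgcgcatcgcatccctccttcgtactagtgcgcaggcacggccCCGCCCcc

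These 4 windows differ in base composition. The E007 window is 62.8% G and C with 18 CpG dinucleotides, the E030 window 43.6% with 3, the Klf2 window 71.2% with 29 and the Eps15l1 window 63.2% with 18, against medians of 52.4% and 6 over 32851 RefSeq windows of that length. E030 holds 4 CCAAT matches, and E007 holds 1 each of the CCAAT box, GC box and ETS motif. The Klf2 window holds 2 GC boxes, and the Eps15l1 window 3 and 1 E box. Among all windows 33.8% hold the CCAAT box, 32.7% the GC box, 12.4% the TATA box, 6.91% the ETS motif, 6.02% the E box, 2.26% the NRF1 motif and 1.56% the YY1 motif. So both fragments at the ends of the cCRE order reach over the annotated start of a gene, Zfp617 (a zinc finger protein) for E007 and the long non-coding RNA gene Gm39196 for E030. Matches are letters in a window and were not tested for function. Elsewhere a cCRE is placed by RefSeq gene spans, which do not tell exon from intron.

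cCRE effects were about equally large in the 2 positions. Over the 847 pairs the SD of the effect, on the log2 scale, was 0.509 Upstream and 0.472 Downstream. Effects ran from -1.91 to 3.03 Upstream and from -1.74 to 1.84 Downstream, so the strongest activation was seen Upstream and the lowest values were alike. An effect above 1 was measured for 35 pairs Upstream and 15 Downstream, and one below -1 for 16 and 23. The median size of an effect, without its sign, was 0.227 Upstream and 0.291 Downstream. The median activity of the pairs was 2.70 Upstream and 1.04 Downstream; how the 2 tables were scaled is not given in the sources used here, so these levels are not compared.

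The replicate error differed more than the effects did. The median SD between replicates of a pair's effect was 0.101 Upstream and 0.0472 Downstream, and Pearson's r between replicates over the pairs was 0.89 to 0.91 Upstream and 0.98 Downstream. The SD over all shared pairs was 0.534, 0.564 and 0.481 in Upstream replicates 1, 2 and 3, and 0.479, 0.460 and 0.487 in the Downstream ones. Upstream replicate 3 thus had the smallest spread of its group. With limma and Benjamini-Hochberg (BH) adjustment over each whole table at 0.05, 160 of the 847 pairs differed from their promoter's median Upstream (89 higher, 71 lower), where 13.1% of all 3685 fitted Upstream pairs did (7.9% higher, 5.16% lower). Downstream, 708 did (357 higher, 351 lower), where 84% of all 1364 pairs did (38% higher, 46% lower). The members' share of 83.6% Downstream lies near its background. Upstream their share of 18.9% lies above the 13.1% of the whole table, which includes the members. The Upstream calls need all 3 replicates: without any 1 of them limma called 0 pairs in that table, although 768 to 1010 had an unadjusted p under 0.05. Set against the promoter alone in place of the median pair, the split of calls over the whole tables moved from 291 higher and 190 lower to 244 and 797 Upstream, and from 518 and 628 to 266 and 824 Downstream, with a median shared pair at -0.34 and -0.23; a sign of an effect is therefore relative to the median pair.

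More often than not, a pair lay on the same side of its promoter's median pair in both positions. The sign of the effect was the same in both assays for 548 pairs (64.7%). Both assays called 145 pairs. That is 90.6% of the Upstream calls among the members, where 83.6% of all 847 pairs were called Downstream. It is 20.5% of the Downstream calls, where 18.9% of all pairs were called Upstream. The overlap of calls was thus little above those shares. Of the 145 pairs, 68 were higher in both, 59 lower in both and 18 (12.4%) had opposite signs. Pearson's r between the assays was 0.48 and Spearman's rho 0.44 over 847 pairs, well below the r within an assay. The pairs share cCREs, promoters and libraries, so these coefficients only describe the pairs. Without the 14 pairs of E007 and the 11 of E030, r was 0.39.

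The likeness lay in the cCRE rather than in the particular pair. For the 71 cCREs measured with at least 3 promoters, the mean effect over their shared pairs gave an r of 0.73 and a rho of 0.66 between the assays. The replicates of an assay gave 0.97 to 0.99. The mean had the same sign in both assays for 48 of the 71. When the mean of each oriented cCRE was taken away, so that only the deviation of each pair from it remained, r between the assays was 0.08 over 830 pairs. That remainder repeated within an assay, with r of 0.73 to 0.77 between Upstream and 0.94 to 0.95 between Downstream replicates. The remainder thus repeated in each position, but had little in common between the positions. It can hold a preference among promoters and also traits of a construct's own plasmids, which the replicates of an assay share. These were not told apart. Without the pairs in the lowest 10% of activity in either assay the r between the assays was 0.17.

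Activators at the head of the order came first. E007 (chr8:71922525-71922975, over the start of Zfp617) ranked 1 in both assays. Its mean effect was 1.77, 1.87 and 1.58 in the 3 Upstream replicates (1.74 ± 0.15, SD) and 0.84, 0.77 and 0.76 in the Downstream ones (0.79 ± 0.04). All 14 of its pairs, with all 10 promoters, lay above 0 in both positions. In fold terms the mean was 3.34 over the median pair Upstream and 1.73 Downstream. The replicate values did not overlap, and the difference of 0.95 (SE 0.068) had a limma BH-adjusted p of 5.86e-06 over 71 cCREs. E007 was also the most active of these cCREs without any promoter in the Upstream assay (log2 activity 1.97 ± 0.10, n = 3), and ranked 4 of 70 in the Downstream vector without promoter (-0.91 ± 0.21).

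The effect of E007 varied with the promoter, and more so Upstream. Under strand label + it was 3.03 with P016, 2.85 with P001, 2.43 with P019, 1.83 with P013, 1.77 with P009, 1.76 with P018, 1.27 with P021, 1.23 with P022, 1.05 with P014 and 0.97 with P017 in the Upstream assay. The same pairs had 0.71, 1.16, 1.20, 0.35, 0.79, 0.47, 0.73, 0.18, 0.41 and 0.45 Downstream. The largest Upstream gain, with P016 of Klf2, thus had 4 others above it Downstream, while P022 of Smim7 had a low gain in both positions. Of its 4 pairs under label -, the one with P017 was higher Downstream (1.12) than Upstream (0.68).

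Other strong activators fell into those higher Upstream, those higher Downstream and those whose difference did not pass the test. E011 (chr8:71952937-71953387, within the span of Zfp961) was measured in 7 pairs with only 4 promoters. Its mean was 0.96 ± 0.12 Upstream and 0.52 ± 0.11 Downstream (SD, n = 3 each; difference 0.45, limma BH-adjusted p = 0.000538). E097 (chr8:72676845-72677295, within the span of Nwd1) had 0.95 ± 0.09 and 0.54 ± 0.04 (difference 0.41, adjusted p = 0.000131). These 3 Upstream leaders, E007 included, were also the 3 most active fragments on their own Upstream. E006 (chr8:71900631-71901081, between genes) had 0.68 ± 0.06 Upstream and 0.77 ± 0.03 Downstream. The difference of -0.08 (SE 0.039) did not pass (adjusted p = 0.0854), but passed when Upstream replicate 2 was left out (-0.11, adjusted p = 0.0251). E021 (chr8:71988366-71988816, within the span of the cytochrome P450 gene Cyp4f18) had 0.63 ± 0.11 and 0.54 ± 0.03, and E008, which overlaps E007 and reaches further into Zfp617, 0.57 ± 0.06 and 0.63 ± 0.06. Their differences of 0.09 (SE 0.055, adjusted p = 0.188) and -0.06 (SE 0.044, adjusted p = 0.241) did not pass, and every pair of both cCREs lay above 0 in both positions, 13 for E021 and 20 for E008. E021's difference passed without Upstream replicate 1 (0.14, adjusted p = 0.0387). E046 (chr8:72271221-72271671, between genes) was larger Downstream, at 0.62 ± 0.06 against 0.36 ± 0.10 (difference -0.26, adjusted p = 0.00263).

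The lowest cCREs were low in both positions. E030 (chr8:72125819-72126269) ranked last of 71 in both assays. Its mean effect was -1.18, -1.24 and -1.11 in the Upstream replicates and -0.97, -1.03 and -1.17 in the Downstream ones, so the groups overlapped. All 11 pairs lay below 0 in both assays, and its mean activity was 0.44 times that of the median pair Upstream and 0.48 times Downstream. The difference of -0.12 (SE 0.055) did not pass the test (limma BH-adjusted p = 0.0807); without Downstream replicate 3 it did (-0.18, adjusted p = 0.0199), as it did with a replicate block (adjusted p = 0.0234). Without the pairs in the lowest 10% of activity it was -0.29 (adjusted p = 0.00111), and with the cCRE labels exchanged Downstream 0.061, so its sign and call rest on the setting. On its own E030 was not a weak fragment: it ranked 6 of 71 Upstream (log2 activity -1.25 ± 0.46) but 67 of 70 in the Downstream vector without promoter (-4.09 ± 0.26, SD, n = 3). E040 (within Cib3), with means of -0.77 ± 0.16 and -0.69 ± 0.05, and E092 (within Nwd1), with -0.67 ± 0.17 and -0.56 ± 0.06, also had every pair below 0 in both positions, 9 and 13 pairs. Their differences of -0.08 (SE 0.073, adjusted p = 0.349) and -0.10 (SE 0.079, adjusted p = 0.263) did not pass with all samples; without Upstream replicate 3 both did (-0.17 and -0.19, adjusted p = 0.0101 and 0.0403).

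Other low cCREs differed in size between the positions. E038 (within Hsh2d) was lower Upstream (-0.85 ± 0.10 against -0.40 ± 0.04; difference -0.45, limma BH-adjusted p = 0.000131). Without the pairs in the lowest 10% of activity the E038 difference was -0.78, with a Downstream mean of -0.06. E075 (within 1700030K09Rik) was lower Downstream (-0.44 ± 0.07 against -0.85 ± 0.10; difference 0.40, adjusted p = 0.000324), and so was E098 (-0.50 ± 0.07 against -0.73 ± 0.06; difference 0.23, adjusted p = 0.00228). E098 (chr8:72677306-72677756) begins just after the activator E097 ends, so neighbouring fragments within Nwd1 stood near the opposite ends of the order in both assays. E050 lay at -0.53 ± 0.04 and -0.44 ± 0.02; its difference of -0.09 passed narrowly (adjusted p = 0.0494) and no longer did when any 1 replicate other than Upstream replicate 1 was left out (adjusted p 0.0551 to 0.162) or with a replicate block (adjusted p = 0.0793).

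The mean effect differed between positions for most cCREs, in both directions. Among the 71, 43 (60.6%) passed the limma test of the difference, 23 (32.4%) higher Upstream and 20 (28.2%) higher Downstream, and for 49 (69%) the 3 Upstream and 3 Downstream values did not overlap. Among single pairs 515 (60.8%) passed, 256 (30.2%) with the higher effect Upstream and 259 (30.6%) Downstream, and 598 (70.6%) did not overlap. Set against the promoter alone, the split was 188 and 326 over pairs and 15 and 31 over cCREs, so the balance of directions rests on the reference chosen. Against that reference the differences of E006, E008, E030, E040 and E092 passed (-0.16 to -0.24, adjusted p 0.00147 to 0.0337), and that of E098 did not (0.13, adjusted p = 0.0801).

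Some cCREs were above the median pair in one position and below it in the other. E083 (chr8:72561112-72561562, between genes, 3636 bp from Smim7) had a mean effect of 0.34 ± 0.05 Upstream, with 17 of 18 pairs above 0, and -0.34 ± 0.08 Downstream, with 2 of 18. The difference was 0.68 (SE 0.048, limma BH-adjusted p = 5.86e-06). E005 (chr8:71900277-71900727), which overlaps the activator E006, had 0.23 ± 0.05 and -0.42 ± 0.06 (difference 0.64, adjusted p = 5.86e-06). E105 (chr8:72734930-72735380, within the span of Sin3b, which encodes a transcriptional corepressor) had 0.28 ± 0.06 and -0.24 ± 0.03 (difference 0.53, adjusted p = 6.49e-06). E017 had 0.19 ± 0.13 and -0.28 ± 0.08 over 5 pairs (difference 0.47, adjusted p = 0.000371). Against the promoter alone all 4 differences kept their sign and still passed, while none of the 4 Upstream means stayed clearly above it: E083 had 0.0053, E005 -0.10, E105 -0.05 and E017 -0.18.

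The opposite pattern, higher Downstream, was seen for E087, E065, E055 and E070. E087 (chr8:72590167-72590617, within the long non-coding RNA gene Gm51538) had a mean of -0.07 ± 0.04 Upstream and 0.60 ± 0.07 Downstream over 8 pairs (difference -0.67, limma BH-adjusted p = 5.86e-06), and ranked 42 Upstream and 5 Downstream. Its Downstream mean came from few promoters, since 5 of the 8 pairs lay above 0 and the values ran from -0.22 to 1.84. The 3 highest were those with P014, P018 (1.44) and P009 (0.86), and with P001 both label pairs lay near 0. E070 (chr8:72400550-72401000, within the span of Eps15l1) was more even: -0.10 ± 0.04 with 7 of 19 pairs above 0 Upstream, and 0.34 ± 0.02 with 19 of 19 Downstream (difference -0.45, adjusted p = 7.03e-06). E055 (chr8:72302385-72302835, 16227 bp from Klf2) had -0.12 ± 0.04 and 0.40 ± 0.04 over 7 pairs (difference -0.52, adjusted p = 5.86e-06). E065 (within Eps15l1) had -0.37 ± 0.07 and 0.20 ± 0.06 over only 4 pairs (difference -0.57, adjusted p = 9.53e-06), with a Downstream mean of -0.05 against the promoter alone.

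The largest differences of single pairs fell on few cCREs, and the 5 largest towards Upstream all had the Klf2 or the Zfp882 promoter. These promoters, P016 and P001, had the lowest median log2 activities Upstream (0.19 and -0.48), and P016 had the widest spread of effects there (0.80). E007+ P016+, the top activator with the Klf2 promoter (Klf2 encodes a Krüppel-like factor of the naive pluripotency network), had activities of 8.29, 10.7 and 9.15 Upstream and 1.25, 1.79 and 1.51 Downstream. Its effect was 3.03 ± 0.25 Upstream, the highest of all, and 0.71 ± 0.11 Downstream (difference 2.32, SE 0.13, limma BH-adjusted p = 3.38e-05). E105+ P016+ had 2.55, 3.89 and 3.59 Upstream and 0.439, 0.609 and 0.584 Downstream. Its effects were thus on opposite sides of the median pair, 1.53 ± 0.32 and -0.77 ± 0.09 (difference 2.30, adjusted p = 5.81e-05). With the Zfp882 promoter, E105+ P001+ had 1.46, 1.81 and 1.85 Upstream and 0.130, 0.140 and 0.149 Downstream, effects of 1.24 ± 0.11 and -1.05 ± 0.12 (difference 2.29, adjusted p = 1.15e-05). E007+ P001+ (difference 1.69) and E083- P016+ (1.61) came next in that direction.

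Downstream excess was led by E038- P014+, whose activities were 2.24, 2.73 and 1.74 Upstream and 1.86, 1.72 and 1.58 Downstream. Relative to the median pair of that promoter in each assay, these are effects of -1.33 ± 0.17 and 0.65 ± 0.04 (difference -1.97, limma BH-adjusted p = 1.47e-05). E087- P014+ had 5.21, 5.77 and 4.86 Upstream and 4.72, 3.39 and 3.76 Downstream, effects of -0.07 ± 0.04 and 1.84 ± 0.15 (difference -1.91, adjusted p = 1.47e-05); 1.84 was the highest Downstream effect of all pairs. P014 lies within the span of Ap1m1, a gene for a clathrin adaptor subunit. E087+ P009+ followed, with Rab8a, which encodes a small GTPase of vesicle transport: its effects were -0.86 ± 0.05 and 0.86 ± 0.25 (difference -1.72, adjusted p = 7.11e-05). E065- P001+ (-1.44) and E087- P018+ (-1.34) completed the 5. Pairs called in both assays with opposite signs included E105+ P018+ (0.74 ± 0.10 and -0.75 ± 0.10) and E005+ P009+ (0.66 ± 0.08 and -0.68 ± 0.09).

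Effects differed between the strand labels of a cCRE, and for most cCREs, not all, that difference had opposite signs in the 2 tables. For 296 combinations of a cCRE and a promoter both labels were measured in both assays. Within an assay the effects under + and - had an r of 0.69 Upstream and 0.46 Downstream. Between the assays r was 0.39 for + with + and 0.50 for - with -, but 0.58 for Upstream + with Downstream - and 0.54 for Upstream - with Downstream +. The difference of + minus - had an r of -0.29 between the assays over the 296 combinations, while between replicates it was 0.71 to 0.75 Upstream and 0.97 to 0.98 Downstream. Averaged over at least 3 promoters it had opposite signs in 31 of 46 cCREs (r = -0.49, rho = -0.53). It was larger than 0.5 in size for 3 cCREs Upstream and 11 Downstream, and 9 of those 11 had the opposite sign Upstream. What the label + stands for physically in each assay, towards the promoter or along the genome, is not given in the sources used here, so whether equal labels are equal orientations cannot be told.

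E005, E034 and E105 had the largest gaps between the assays in this difference, and were picked out after their values were seen. E105 had a difference of + minus - of 0.28 ± 0.08 Upstream and -0.95 ± 0.03 Downstream over 8 promoters (SD, n = 3 replicates), and its Downstream mean was -0.69 under + and 0.26 under -. E005 had 0.67 ± 0.04 and -0.75 ± 0.08 over 6 promoters, with a Downstream mean of -0.65 under + and 0.10 under -. Both were thus low Downstream under one label only. E034 turned the other way, with -0.42 ± 0.19 and 0.89 ± 0.08 over 3 promoters. E097 had a difference between labels mainly Upstream (0.80 ± 0.03 against -0.04 ± 0.03 over 3 promoters), and E076 mainly Downstream (0.12 ± 0.11 against -0.80 ± 0.07 over 8 promoters). These differences of label differences were not tested.

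Matching the tables on opposite cCRE labels, an alternative chosen after seeing the data, gave an r of 0.60 over 798 pairs. Over the 64 cCRE means of that matching r was 0.78 and rho 0.64, against 0.73 and 0.66 over 71 under equal labels. The sets of cCREs differ, and r was higher while rho was not. The position differences of E007, E083 and E105 were then 0.67, 0.67 and 0.45, and that of E005 was 0.41 (limma BH-adjusted p 7.18e-06 to 5.57e-05). These cCREs thus kept a difference under either matching. The difference of E087 shrank from -0.67 to -0.15 (adjusted p = 0.0165), that of E017 from 0.47 to 0.27 (adjusted p = 0.00337), and that of E098 to 0.09 (adjusted p = 0.139). Among pairs, named by their Upstream label, E105+ P001+, E105+ P016+ and E105+ P018+ had 0.89, 1.00 and 0.42 and E005+ P009+ 0.30, while E087- P014+ was 0.08 (adjusted p = 0.193), E087- P018+ -0.24 and E038- P014+ -1.03.

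Promoters differed in how widely the cCREs moved them. The measure, over a set of cCREs that differs between promoters, is the SD of the effects over a promoter's shared pairs, per replicate. For the Klf2 promoter P016 (59 pairs) it was 0.816, 0.873 and 0.707 Upstream and 0.506, 0.474 and 0.493 Downstream, the widest of the 10 Upstream but not Downstream. The 2 groups did not overlap, and the log2 ratio of Upstream over Downstream was 0.70 (SE 0.075, limma BH-adjusted p = 1.83e-10). The fit gave this same SE to each of the 10 promoters, so it is a pooled value and not a promoter's own. Shifts in spread common to the promoters of a sample are not part of the fit. The adjusted p-values for promoter spreads, here and below, can therefore be too small. For P017 (131 pairs), at the shared start region of Eps15l1, a gene of endocytosis, and Gm46043, it was 0.286, 0.309 and 0.283 Upstream, the narrowest there, and 0.421, 0.378 and 0.423 Downstream. That ratio was -0.48 (SE 0.075, adjusted p = 8.86e-07), so the 2 promoters shown by sequence above differed in opposite directions.

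In all, 6 of 10 promoters passed the test (60%), 4 wider Upstream (40%) and 2 wider Downstream (20%), and for 6 (60%) the groups did not overlap. P009 of Rab8a (117 pairs) was wider Upstream, with 0.667, 0.698 and 0.601 against 0.548, 0.517 and 0.553 (ratio 0.28, limma BH-adjusted p = 0.00168). So was P022 (64 pairs), at the start of Smim7, with 0.386, 0.422 and 0.415 against 0.342, 0.331 and 0.353 (ratio 0.25, adjusted p = 0.00337). P014 (78 pairs) was wider Downstream, with 0.377, 0.384 and 0.366 against 0.479, 0.460 and 0.493 (ratio -0.34, adjusted p = 0.000161). P001 of Zfp882 (118 pairs) passed with overlapping replicates, 0.625, 0.696 and 0.537 against 0.533, 0.549 and 0.538 (ratio 0.19, adjusted p = 0.0269); it did not pass when any 1 replicate other than Upstream replicate 3 was left out (adjusted p 0.0521 to 0.243) or with a replicate block (adjusted p = 0.0794), and without the pairs in the lowest 10% of activity its ratio was 0.94.

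The other promoters, P013 of Fam32a, P018 of Calr3 and 1700030K09Rik, P019 of Cherp and P021 of the Mediator subunit gene Med26, had ratios of 0.16, 0.13, 0.08 and -0.11 (SE 0.075 each; adjusted p = 0.0606, 0.11, 0.282 and 0.19). Without Upstream replicate 3, the one with the smallest spread, P013, P018 and P019 also passed (0.20, 0.17 and 0.17; adjusted p = 0.00355, 0.0095 and 0.0095), and 7 promoters were then wider Upstream; P013 also passed without Upstream replicate 2 or Downstream replicate 3 (adjusted p = 0.0456 and 0.0447). Without the pairs in the lowest 10% of activity P019 had 0.41. The mean ratio over the 10 promoters was 0.0866, and a two-sided exact permutation test over the 6 samples gave p = 0.3, where 3 against 3 can go no lower than 0.1. The mean log2 spread was -0.98, -0.93 and -1.10 in the Upstream replicates and -1.08, -1.14 and -1.05 in the Downstream ones, so the groups overlapped. With so few samples the permutation test can hardly show a difference of this mean, and nothing is concluded from it.

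Weak promoters had wider effects than strong ones Upstream, and less plainly so Downstream. The median log2 activity of the shared pairs ran from -0.48 ± 0.10 (P001) to 3.69 ± 0.14 (P022) Upstream and from -1.80 ± 0.22 (P001) to 1.83 ± 0.12 (P022) Downstream (SD, n = 3), and the order of promoters was nearly the same (rho = 0.94, r = 0.85 over 10 promoters). The spread and that level had an r of -0.80 (rho -0.77) Upstream and -0.58 (rho -0.47) Downstream. Downstream, P013 had the widest spread (0.572) at a level of 0.15, and P019, at a level of -1.40, had 0.466. The spread ratio of P001, the promoter with the lowest level, moved when the pairs lowest in activity were left out, as given above. The 10 promoters share libraries and many cCREs, but not the same set, from 25 cCREs for P013 to 76 for P017. Spreads of different promoters thus rest on different cCREs, and these are descriptions.

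Promoters, each with its own set of cCREs, also differed in how alike the effects were in both positions. Among them r between the assays was 0.67 for P013 (29 pairs), 0.61 for P019 (80), 0.56 for P021 (75), 0.55 for P017 (131), 0.53 for P009 (117), 0.50 for P001 (118), 0.47 for P018 (96), 0.45 for P016 (59) and 0.39 for P022 (64). P014 stood lowest at 0.15 (rho 0.13, 78 pairs). Its replicates were alike within each assay, with a lowest r of 0.86 Upstream and 0.98 Downstream. Under equal labels, the order of cCREs at the Ap1m1 fragment thus repeated between replicates of an assay, which share a plasmid pool. It had little in common between the positions. With cCRE labels exchanged Downstream, the difference of E087- P014+ was 0.08 against -1.91, and that of E038- P014+ -1.03 against -1.97. The r of P014 under that matching is not given here.

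Activity of a cCRE without a promoter went with its effect more closely Upstream. The mean effect of a cCRE Upstream had an r of 0.67 (rho 0.50, 71 cCREs) with its activity alone in the Upstream vector, and the Downstream effect an r of 0.35 (rho 0.22). Only E007, E011 and E097 had a log2 activity alone above 0 there (1.97, 1.21 and 0.57), and r without them is not given here. Values of other cCREs alone could vary widely between replicates, such as -2.85, -4.09 and -1.90 for E003. With the activity in the Downstream vector without promoter, r was 0.81 (rho 0.77, 70 cCREs) for the Upstream and 0.65 (rho 0.61) for the Downstream effect. The size of a pair's effect had almost no relation to the distance between cCRE and promoter in the genome, with r of 0.04 Upstream and 0.07 Downstream over 847 pairs. All are descriptions over fragments measured in the same libraries.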

How the data were processed

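Activity per construct and replicate is the authors' deposited ratio of cDNA to plasmid barcodes on a linear scale; barcode filters, scaling, depth and how reads were counted are not given in the sources used here. Per the submitters' processing notes, mm10 and Bowtie2 were used, with no role stated. A further 22 columns of values match no single sample and were not used. Replicates were taken from the sample titles.

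Log2 activities were centred per replicate on the median over a promoter's shared pairs. The centre was then applied to the whole table; 73 Upstream pairs with a replicate at 0 were left out, and 3685 fitted. Effects against 0 (3 replicates), and Upstream against Downstream (3 against 3) for pairs, cCRE means (at least 3 promoters) and log2 promoter spreads, were tested with limma 3.58.1 (R 4.3.3), eBayes and Benjamini-Hochberg adjustment at 0.05. The fits were also run on simulated data with independent noise in each row. That noise has no shifts shared within a sample, so the simulation cannot show how such shifts affect the calls. Differences between assays rest on the 6 samples together. Tables were made with Python 3.11.15, pandas 2.3.3 and scipy 1.17.1.

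Named cCREs were the 5 highest and 5 lowest in each assay and the 5 largest passing differences in each direction. Named pairs were the 5 largest passing differences in each direction and, of pairs called in both assays with opposite signs, the 5 with the largest smaller effect; sequences came from named cCREs, and those of 2 promoters, like the cCREs named for their strand difference, were chosen after their values were seen. The members and lists were chosen with earlier results of these data known. Replicate numbers are not stated to pair the assays.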

Additional observations from a re-analysis of the deposited data

Results flagged for a closer look

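These results were singled out because the effect in one position differed from that in the other in a limma test of the difference itself (Benjamini-Hochberg adjustment). All values are on the log2 scale, Upstream minus Downstream, and none is explained here.

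Mean effects of cCREs were higher Upstream for E007 (0.95), E083 (0.68), E005 (0.64), E105 (0.53), E017 (0.47), E011 (0.45), E097 (0.41), E075 (0.40) and E098 (0.23). They were higher Downstream for E087 (-0.67), E065 (-0.57), E055 (-0.52), E038 (-0.45), E070 (-0.45), E046 (-0.26) and E050 (-0.091).

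Single pairs with the higher effect Upstream were E007+ P016+ (2.32), E105+ P016+ (2.30), E105+ P001+ (2.29), E007+ P001+ (1.69), E083- P016+ (1.61), E105+ P018+ (1.50) and E005+ P009+ (1.33). Those with the higher effect Downstream were E038- P014+ (-1.97), E087- P014+ (-1.91), E087+ P009+ (-1.72), E065- P001+ (-1.44) and E087- P018+ (-1.34).

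The spread of effects over a promoter's pairs had a log2 ratio of Upstream over Downstream of 0.70 for P016, 0.28 for P009, 0.25 for P022, 0.19 for P001, -0.34 for P014 and -0.48 for P017.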

How the results depend on the processing

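Of 186 alternative values of the main counts and coefficients, 168 stayed within their limits and 18 moved. Limma calls in the whole Upstream table, 481 with all samples, were 0 without any 1 Upstream replicate (768 to 1010 at an unadjusted p under 0.05) and 1041 against the promoter alone. Against the promoter alone, 266 Downstream pairs were higher and 15 cCREs were higher Upstream. Leaving out 1 replicate in turn gave 3 to 7 promoters wider Upstream. Without the pairs in the lowest 10% of activity in either assay, r was 0.45 over pairs, 0.67 over cCRE means (rho 0.62) and 0.17 after removal of the oriented cCRE mean. With the cCRE strand label exchanged Downstream (chosen after seeing the data), r was 0.60 and rho 0.54 over pairs, 0.78 over cCRE means (rho 0.64) and 0.14 after that removal.

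Signs turned as follows. With medians over pairs, the differences of E008 and E050 were 0.019 and 0.036, and the Upstream mean of E087 was 0.00013. With labels exchanged, E030 had 0.061, E092 0.010, E087- P014+ 0.084, and the Upstream mean of E087 was 0.024. Without the pairs lowest in activity E040 had 0.055. Against the promoter alone the difference of E021 was -0.0071, the Upstream means of E005, E017 and E105 were -0.10, -0.18 and -0.053, and the Downstream mean of E065 was -0.050.

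The replicate block gave 481 pairs, 44 cCREs and 5 promoters with a difference, against 515, 43 and 6. Among the named items it changed the calls of E030, E050 and P001. Deviations of same-numbered samples had r of 0.10, -0.03 and 0.07, so the numbers were not taken to pair the samples. Barcode numbers limit precision to an unknown extent.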
